A study of Mus musculus with 18 samples.

Results

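The miRNAs described here are mmu-miR-320-3p, mmu-miR-484, mmu-miR-877-5p, mmu-miR-877-3p and mmu-miR-702-3p, 5 of the 1907 mature miRNAs in the count table. They were chosen by name, because their hairpins are known or annotated as made without Drosha, and not by their counts. Earlier results of these data were known when the choice was made. Each of the 5 had 1 row in the table and all 5 passed the filter on low counts, which kept 534 miRNAs. The libraries came from NIH/3T3 cells, a line of mouse embryonic fibroblasts, and were of small RNA, either total (input) or pulled down by immunoprecipitation (IP) with an antibody that binds pseudouridine (Ψ), an isomer of uridine. Cells were either wild type (WT) or had Pus1, the gene of a Ψ synthase, knocked down for 3 days (KD3) or for 6 days (KD6). Each of the 6 groups had 3 replicates, A, B and C, which gave 18 libraries. The labels give no day for WT and name no control reagent. Effects of the knockdown, of its reagent and of time in culture therefore cannot be told apart. The sources used here do not give the reagent used for knockdown, or whether the replicates were separate cultures, so p-values measure the spread between these libraries.

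Most animal miRNAs begin as long transcripts from which the nuclear enzyme Drosha cuts a hairpin, and Dicer then cuts the hairpin into a duplex from which one strand is loaded into Argonaute. The miR-320 and miR-484 hairpins are transcribed directly as short capped RNAs that start at the hairpin and go to Dicer without Drosha. Mirtrons are hairpins made of a whole short intron, which the spliceosome releases and a debranching enzyme opens before Dicer cuts them. MiR-320-3p and miR-484 are the main products of their hairpins, whereas the mirtron miR-877 gave reads from both of its arms.

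The RefSeq sequences of the mature miRNAs (GRCm38.p6) are shown because the antibody recognizes modified uridines and because the seed, bases 2 to 8 from the 5′ end and here in capitals, directs target pairing.
miR-484: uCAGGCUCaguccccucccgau
miR-877-5p: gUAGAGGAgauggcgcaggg
miR-877-3p: uGUCCUCUucucccuccuccca
miR-702-3p: uGCCCACCcuuuaccccgcucc
These 4 seeds differed from one another. None of them occurred in another miRNA of the count table with a RefSeq sequence, of which there were 1623, these 4 included. Uridine made up 5 of 22 bases of miR-484 and of miR-702-3p, 8 of 22 bases of miR-877-3p, and 2 of 20 bases of miR-877-5p, at positions 2 and 11. Their GC content was 63.6% for miR-484, 65.0% for miR-877-5p, 59.1% for miR-877-3p and 68.2% for miR-702-3p. The median of the 462 tested miRNAs with a sequence was 50.0% GC, and 4.55% of them had at least the GC content of miR-702-3p.

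The positions of the hairpins in GRCm38 were compared with the GENCODE M21 annotation. The Mir877 hairpin (chr17:35960730-35960814, minus strand) coincided with an intron of Abcf1, which encodes an ATP-binding protein of translation, at both ends. The Mir702 hairpin (chr5:136991433-136991541, plus strand) began 9 nt before and ended 2 nt inside an intron of Plod3 (chr5:136991442-136991543), a lysyl hydroxylase gene. The hairpins are shown with both mature arms in capitals.
Mir877: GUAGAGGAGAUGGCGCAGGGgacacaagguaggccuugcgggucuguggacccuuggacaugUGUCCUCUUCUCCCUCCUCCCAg
Mir702: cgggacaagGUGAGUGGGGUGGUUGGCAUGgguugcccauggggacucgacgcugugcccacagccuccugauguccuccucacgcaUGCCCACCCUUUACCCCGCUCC
In both, the 5p arm started at the first base of the intron, and the 3p arm ended 1 nt before the end of the intron in Mir877 and 2 nt before it in Mir702. The Mir320 hairpin (chr14:70443510-70443591, plus strand) overlapped no annotated transcript and lay 63 nt from the start of Polr3d, an RNA polymerase III subunit gene on the opposite strand. The Mir484 hairpin (chr16:14159626-14159692, plus strand) partly overlapped a 5′ UTR exon of Marf1, also on the opposite strand. Neither of these hairpins filled an intron.

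One library, KD6 input A, was shallow with 241109 mapped reads, and the other 17 held between 3989031 and 15099781. In that library miR-877-5p and miR-877-3p had 1 count each and miR-702-3p had 2, at or under the 3 counts that a count of 0 allows, whereas miR-320-3p had 74.5 and miR-484 had 28. Those 3 counts correspond to 12.2 CPM (counts scaled to the size of the library) there and to at most 1.34 CPM in any other library, for counting error only. KD6 input values are therefore also given without this library. The table holds miRNAs, so the Pus1 transcript and the messenger RNA markers of fibroblasts were not analysed here.

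All levels are CPM scaled with TMM factors and are shares of a bulk library, in which fewer cells with a miRNA and less of it per cell cannot be told apart. A log2 ratio of IP to input is relative to that scaling. The median log2 ratio of all 534 miRNAs was −0.35 in WT, −0.25 in KD3 and −0.28 in KD6. With the shallowest library as the TMM reference, a setting chosen after seeing the data, they were instead 0.34, 0.18 and 0.22, so positions relative to the median are given beside the ratios.

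MiR-320-3p was the most abundant of the 5, and its IP levels overlapped between conditions. Its WT input CPM was 624.8, 621.5 and 639.7, and its WT IP CPM was 1459.9, 1259 and 1653, in replicates A, B and C. In KD3 the inputs had 566.7, 577.7 and 564.8 CPM and the IP libraries 1484, 1373 and 1379. In KD6 the inputs had 300.8, 519.7 and 320.0 CPM and the IP libraries 1305, 1606 and 1479. The 3 IP groups overlapped one another and lay above every input library, and the inputs fell into 3 separate ranges with WT highest and KD6 lowest. Group means ± SD (n = 3) were 628.7 ± 9.71 CPM for WT input, 569.7 ± 6.95 for KD3 input and 380.1 ± 121 for KD6 input. The IP means were 1457 ± 197, 1412 ± 62.1 and 1463 ± 151 CPM in WT, KD3 and KD6.

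MiR-484, made by the same kind of capped hairpin, had input levels like those of miR-320-3p in WT but was not higher in the IP. Its WT input CPM was 564.6, 598.0 and 603.8 and its WT IP CPM was 370.4, 384.3 and 353.3. In KD3 the inputs had 384.4, 451.5 and 476.6 CPM and the IP libraries 278.1, 266.9 and 415.0. In KD6 the inputs had 113.8, 585.8 and 560.9 CPM and the IP libraries 201.8, 182.7 and 290.8. All 3 WT IP libraries lay below all 3 WT inputs. The fractions overlapped in KD3 through replicate C of the IP, and in KD6 through the shallow replicate A of the input, without which the KD6 IP libraries lay below both inputs. By group mean the order was WT input (588.8 CPM), KD3 input (437.5), KD6 input (420.2), WT IP (369.3), KD3 IP (320.0) and KD6 IP (225.1), and in this order only WT input and KD3 input were neighbours without overlap. The place of KD6 input in it depends on the shallow replicate A. Without that library, the KD6 inputs (585.8 and 560.9 CPM) lay above every KD3 input and overlapped with the WT inputs.

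The 5p arm of miR-877 was higher in the IP in each condition. It had 26.9, 36.7 and 30.0 CPM in WT input and 136.1, 89.1 and 113.2 in WT IP. It had 18.3, 22.2 and 23.2 CPM in KD3 input and 79.3, 66.1 and 69.8 in KD3 IP, and 4.06, 16.8 and 13.9 in KD6 input and 78.2, 72.5 and 76.1 in KD6 IP. The inputs descended from WT through KD3 to KD6 with no overlap. Among the IP libraries those of WT lay above those of both knockdown times, which overlapped each other. IP levels were not tested between conditions, and the share of all miRNAs with this order was not counted. The first KD6 input value rests on 1 count.

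The 3p arm of miR-877 was rarer and followed another order. It had 12.5, 7.11 and 8.86 CPM in WT input and 40.8, 14.1 and 23.2 in WT IP. It had 2.13, 5.16 and 1.82 CPM in KD3 input and 10.0, 14.0 and 7.85 in KD3 IP, and 4.06, 7.68 and 7.93 in KD6 input and 39.1, 15.2 and 22.3 in KD6 IP. KD3 had the lowest group mean in both fractions, 3.04 ± 1.84 CPM in input and 10.6 ± 3.14 in IP (SD, n = 3). The KD3 input libraries did not overlap with those of WT, and in the IP the highest KD3 library (14.03 CPM) and the lowest WT library (14.08 CPM) were almost equal. WT IP (26.0 ± 13.6 CPM) and KD6 IP (25.5 ± 12.3 CPM) overlapped over most of their ranges.

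MiR-702-3p, from the Plod3 intron, had 11.6, 13.7 and 10.5 CPM in WT input and 61.1, 51.3 and 37.8 in WT IP. It had 10.2, 12.4 and 6.37 CPM in KD3 input and 33.6, 23.6 and 43.8 in KD3 IP, and 8.13, 13.04 and 5.43 in KD6 input and 68.0, 35.8 and 60.8 in KD6 IP. Every IP library exceeded every input library, whereas the 3 input groups overlapped and KD6 IP overlapped with WT IP. The other arms of the single-arm hairpins were close to absent. MiR-320-5p had 0 to 4 counts per library, with 9 of 18 libraries at 0, and miR-702-5p had 0 to 19 counts, with 3 libraries at 0.

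**Figure D1:**
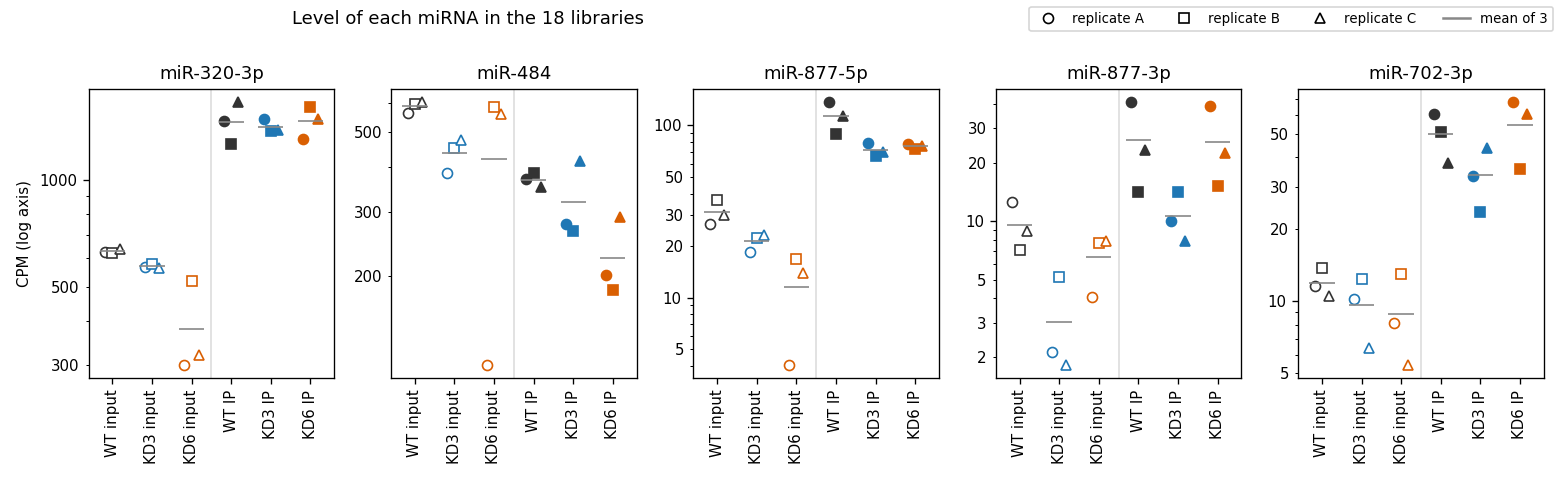
Level of each miRNA (CPM, log axis, a separate scale for each panel) in the 18 libraries, by group, with inputs as open and IP libraries as filled symbols, the replicate letter as the shape and the mean of 3 as a grey line. MiR-320-3p, both miR-877 arms and miR-702-3p lie higher in IP than in input within each condition, and miR-484 lies lower in WT; in replicate A of the KD6 input the miR-877 and miR-702-3p points rest on 1 or 2 counts.

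The comparison of IP with input asks which miRNAs were more frequent in the pulldown. None of the 18 libraries came from a pulldown with a control antibody, so binding other than to Ψ was not tested. In WT cells, miR-320-3p, miR-877-5p, miR-877-3p and miR-702-3p were higher in the IP and miR-484 did not pass the test. In edgeR's quasi-likelihood test, adjusted by Benjamini-Hochberg over 534 miRNAs, the WT log2 ratio of miR-320-3p was 1.21 ± 0.20 (SE), a 2.32-fold difference with adjusted p = 1.72e-05. The mirtron arms had ratios of 1.85 ± 0.24 for miR-877-5p (adjusted p = 1.08e-06, edgeR), 1.45 ± 0.42 for miR-877-3p (adjusted p = 0.00451) and 2.06 ± 0.34 for miR-702-3p (adjusted p = 2.14e-05). Their differences from miR-320-3p were not tested. These 4 of the 5 miRNAs were called higher, against 26.2% of all miRNAs tested, and the same 4 were higher without overlap of the groups, against 28.8%. The WT ratio of miR-484 was −0.67 ± 0.34 (adjusted p = 0.0901, edgeR). It was the 1 miRNA of the 5 that was lower without overlap, as were 44.6% of all miRNAs tested. Relative to the median of all miRNAs, miR-320-3p stood at 1.56, miR-877-5p at 2.20, miR-877-3p at 1.80, miR-702-3p at 2.41 and miR-484 at −0.32 on the log2 scale. Without replicate A of the WT IP, miR-877-3p no longer passed (0.93, adjusted p = 0.0556, edgeR).

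The same 4 miRNAs were called higher in KD3, where 28.1% of all miRNAs were, and were higher without overlap, as were 31.3%. Their KD3 log2 ratios were 1.31 ± 0.20 for miR-320-3p, 1.76 ± 0.24 for miR-877-5p, 1.74 ± 0.47 for miR-877-3p and 1.80 ± 0.34 for miR-702-3p, with edgeR adjusted p from 2.81e-06 to 0.0025. For miR-484 the ratio was −0.45 ± 0.34 (adjusted p = 0.252, edgeR).

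In KD6 these 4 were again called higher, against a background of 31.1%, and higher without overlap, against 31.6%. The KD6 log2 ratios were 1.93 ± 0.20 for miR-320-3p, 2.41 ± 0.27 for miR-877-5p, 1.76 ± 0.48 for miR-877-3p and 2.62 ± 0.39 for miR-702-3p, with edgeR adjusted p from 4.42e-08 to 0.00257. MiR-484 passed as lower, at −0.95 ± 0.35 (adjusted p = 0.0202, edgeR), as did 37.6% of all miRNAs. Without the shallow input library all 5 calls remained, at 1.63, 2.11, 1.50 and 2.45 for the 4 higher miRNAs in the order above and −1.52 for miR-484 (adjusted p = 8.99e-06, edgeR). With total mapped reads as library size miR-877-3p did not pass (0.89, adjusted p = 0.0938, edgeR).

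Neither the sign nor the call of miR-484 held under every setting. With the shallowest library as the TMM reference its ratio was 0.02 in WT, 0.003 in KD3 and −0.42 in KD6, while relative to the median of all miRNAs it was −0.32, −0.18 and −0.64. The KD6 call was also lost without input replicate B (−0.21, adjusted p = 0.601, edgeR) or C (−0.23, adjusted p = 0.562), which leaves the shallow library with 1 other input, and when only the libraries compared were fitted (−0.38, adjusted p = 0.436). In these fits the scaling moved as well, and the median KD6 ratio of all miRNAs was 0.36, 0.36 and 0.26, against −0.28 as reported. The ratio of miR-484 lay below the median in each. In WT it passed as lower when only the 6 libraries compared were fitted (−0.57, adjusted p = 0.000907, edgeR) or without the filter on low counts (−0.82, adjusted p = 0.00281), and in KD3 without IP replicate C (−0.89, adjusted p = 0.0256). In KD3 it also passed as lower without the filter (−0.68, adjusted p = 0.0175, edgeR) and with total mapped reads as library size (−0.79, adjusted p = 0.0492).

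**Figure D2:**
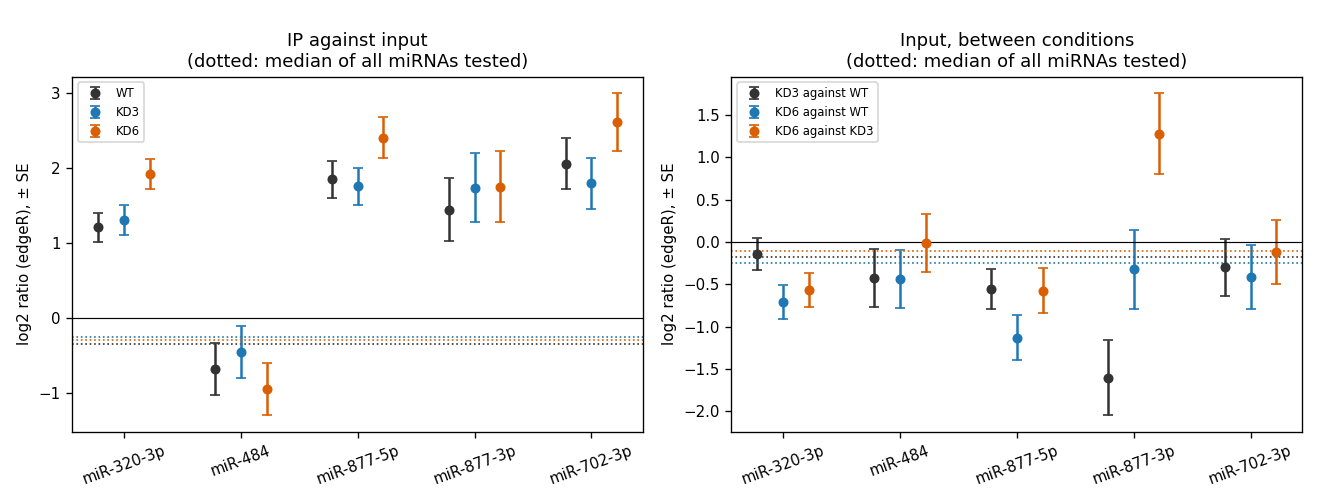
Log2 ratios of the 5 miRNAs (edgeR, bars ± SE, 3 libraries per group), IP against input in WT, KD3 and KD6 on the left and input between conditions on the right, with dotted lines at the median of all 534 miRNAs tested. MiR-484 lies below those medians on the left at −0.67, −0.45 and −0.95, and the other 4 miRNAs lie between 1.21 and 2.62.

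The difference between the capped-hairpin miRNAs was also measured inside each library, where scaling cancels. The ratio of miR-320-3p counts to miR-484 counts, as log2 with 0.5 added to each, averaged 0.10 ± 0.05 (SD, n = 3) in WT input and 1.97 ± 0.26 in WT IP. It averaged 0.39 ± 0.16 in KD3 input and 2.17 ± 0.38 in KD3 IP, and 0.14 ± 1.14 in KD6 input and 2.72 ± 0.40 in KD6 IP. In WT input the ratio of the counts was thus 1.11, 1.04 and 1.06 in replicates A, B and C, and in WT IP it was 3.94, 3.27 and 4.68. The 3 KD6 inputs were far apart, with ratios of 2.63, 0.887 and 0.571, the first from the shallow library.

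Over the 3 conditions the log2 ratio was 2.08 higher in IP than in input, a 4.23-fold difference (exact permutation stratified by condition, two-sided, p = 0.00025, which is the smallest possible here, and 0.002 adjusted over 8 tests). Without the shallow library the difference was 2.29, with the same p of 0.00025 by the exact permutation test. By condition it was 1.88 in WT, 1.78 in KD3 and 2.59 in KD6. For each condition the exact permutation p was 0.1, or 0.2 adjusted, and 3 against 3 libraries cannot give a smaller one. The IP library exceeded the input library of the same letter in 9 of 9 pairs.

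The 2 arms of miR-877, which come from 1 intron, were compared in the same way, as the log2 ratio of 5p to 3p counts. The means ± SD (n = 3) were 1.74 ± 0.63 in WT input and 2.22 ± 0.46 in WT IP, and 2.92 ± 0.75 in KD3 input and 2.78 ± 0.49 in KD3 IP. In KD6 IP it averaged 1.68 ± 0.63. In KD6 input replicates B and C it was 1.12 and 0.80, and replicate A, with 1 count of each arm, gives no ratio that can be read. As counts, there were 2.14, 5.14 and 3.36 reads of the 5p arm for each read of the 3p arm in WT inputs A, B and C, 8.47, 4.30 and 12.01 in KD3 inputs, and 2.18 and 1.75 in KD6 inputs B and C. WT IP libraries had 3.33, 6.27 and 4.86, those of KD3 had 7.91, 4.65 and 8.82, and those of KD6 had 2.01, 4.77 and 3.42. The 5p arm was the more frequent in each of these 17 libraries.

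The difference in this arm ratio between IP and input did not pass the unpaired test. Over the 3 conditions it was 0.46 (two-sided exact permutation within condition, p = 0.137, or 0.218 adjusted over 8 tests), and 0.35 without the shallow library (p = 0.229 by the same exact test). The IP exceeded the input in 6 of the 8 same-letter pairs whose ratios can be read. Between conditions, in a comparison added after the data were seen and stratified by fraction, the log2 arm ratio was 0.87 higher in KD3 than in WT (exact permutation, p = 0.035, or 0.09 adjusted over 6 tests). In KD6 minus KD3 it was −1.69 (exact permutation, p = 0.01, or 0.06 adjusted), and −1.53 without the shallow library (p = 0.02, or 0.105 adjusted). KD6 minus WT gave −0.82 (exact permutation, p = 0.045, or 0.09 adjusted), and −0.66 without the shallow library (p = 0.095, or 0.158 adjusted). These comparisons between conditions permuted input and IP libraries as separate units. By the arm ratio the letters stood in the same order in both fractions of WT and of KD3, so the p-values may be too small. None of the 6 tests passed after adjustment. They included the ratio of miR-320-3p to miR-484, which was 0.24 higher in KD3 than in WT (exact permutation, p = 0.105). For KD6 minus WT it was 0.40 (exact permutation, p = 0.305), and 0.083 without the shallow library (p = 0.78). For KD6 minus KD3 it was 0.15 (exact permutation, p = 0.72), and −0.16 without that library (p = 0.645).

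**Figure D3:**
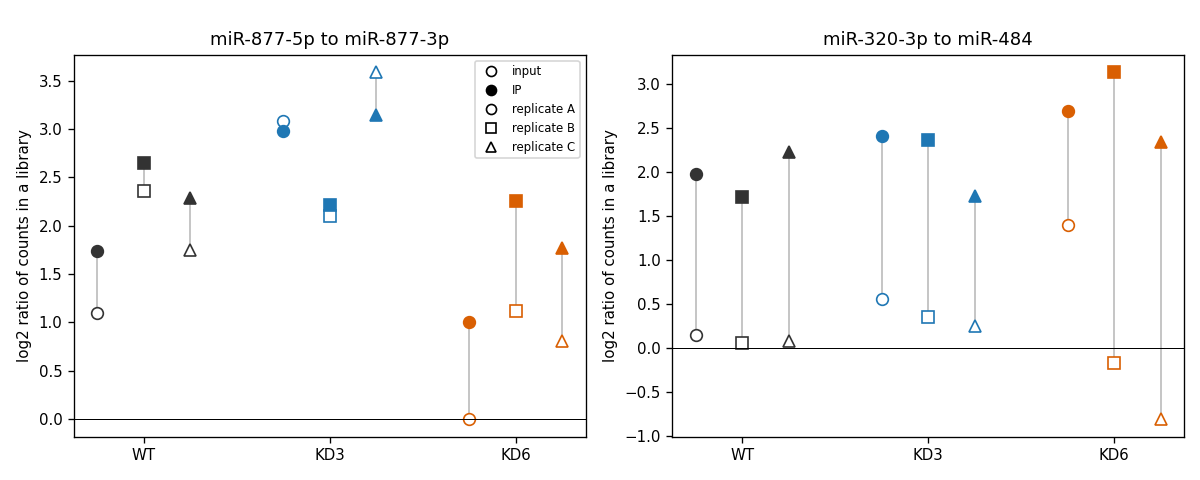
Log2 ratio of counts within each library, for miR-877-5p to miR-877-3p (left) and miR-320-3p to miR-484 (right), by condition, with input (open) and IP (filled) of the same replicate letter joined. On the right all 9 IP points lie above their inputs, and on the left 6 of 8 do besides the pair in KD6 whose input, at 0, rests on 1 count of each arm.

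Whether the enrichment differed between conditions was tested as the difference in the log2 ratio of IP to input. None of the 5 miRNAs passed in any of the 3 comparisons, by edgeR or by DESeq2. For KD3 against WT the background was 0.0% of all miRNAs at an adjusted p under 0.05 and 2.81% at an unadjusted p under 0.05, where 0 of the 5 passed. The KD3 changes lay between −0.26 ± 0.47 and 0.29 ± 0.61 (SE). For KD6 against WT the background was 1.12% by edgeR (6 of 534 miRNAs, and 28 by DESeq2), and 20.6% unadjusted. The 1 of the 5 with an unadjusted p under 0.05 was miR-320-3p, with 0.72 ± 0.28 (adjusted p = 0.165, edgeR). For KD6 against KD3, where 0.187% of miRNAs passed (1 by edgeR and 18 by DESeq2) and 17.8% did so unadjusted, it was again 1 of the 5, miR-320-3p, with 0.62 ± 0.28 (adjusted p = 0.242, edgeR). These 2 comparisons share the KD6 libraries. Of the change in miR-320-3p, 0.46 and 0.50 remained relative to the median of all miRNAs, and without the shallow input the changes were 0.43 (adjusted p = 0.309, edgeR) and 0.51 (adjusted p = 0.193).

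The inputs ask whether the miRNA levels themselves differed between conditions. For KD3 against WT none of the 5 passed by edgeR, where the share of all miRNAs was 0.0%, and none by DESeq2, which called 8 of 534. At an unadjusted p under 0.05, which 8.61% of miRNAs reached, 2 of the 5 were lower, the arms of miR-877, at −1.61 ± 0.44 for miR-877-3p (adjusted p = 0.127, edgeR) and −0.56 ± 0.24 for miR-877-5p (adjusted p = 0.508). By size, miR-877-3p ranked 529 of 534 from the highest ratio. Lower in KD3 without overlap of the groups were 4 of the 5, all but miR-702-3p, against 28.1% of all miRNAs. The call of miR-877-3p depended on the fit, with an adjusted p of 0.0216 (edgeR) when only the 6 libraries compared were fitted and 0.0441 without the filter on low counts.

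For KD6 against WT, 2 of the 5 were lower, against 5.06% of all miRNAs called in either direction. MiR-877-5p had a log2 ratio of −1.13 ± 0.26 (adjusted p = 0.0131, edgeR) and miR-320-3p one of −0.71 ± 0.20 (adjusted p = 0.0396). The same 2 were those with an unadjusted p under 0.05, against 18.4% of miRNAs, and those lower without overlap, against 26.8%. Relative to the median of all miRNAs, which was −0.25, they stood at −0.88 and −0.46. The call of miR-320-3p held in 0 of 15 alternatives, and that of miR-877-5p in 5 of 9 other settings and in 1 of 6 fits with an input library left out. Without the shallow library miR-877-5p stood at −0.88 (adjusted p = 0.0425, edgeR) and miR-320-3p at −0.45 (adjusted p = 0.144).

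For KD6 against KD3 none of the 5 passed, by edgeR or by DESeq2, against 5.99% of all miRNAs. At an unadjusted p under 0.05, which 17.2% reached, were 3 of the 5, miR-320-3p at −0.57 ± 0.20, miR-877-5p at −0.57 ± 0.26 and miR-877-3p at 1.28 ± 0.48 (adjusted p = 0.116, 0.258 and 0.156, edgeR). MiR-320-3p and miR-877-5p were the 2 of the 5 that were lower without overlap, against 20.2%. The arms of miR-877 thus had ratios of opposite sign here, and miR-877-3p ranked 12 of 534 from the highest. This comparison shares the KD3 inputs with that of KD3 against WT, where the same arm was near the lowest.

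Other hairpins that fill an intron were taken from the annotation, as those with both ends within 10 nt of the ends of an intron on the same strand. There were 27 such hairpins with 56 mature miRNAs, Mir877 and Mir702 included. Of the 53 miRNAs that are not among the 5, miR-702-5p included, 36 had a read and 12 passed the filter. In WT, 4 of these 12 were called higher and 3 lower in the IP by edgeR, against 26.2% and 40.4% of all miRNAs, with a median log2 ratio of 0.25 and a range from −4.20 to 2.40, against a median of −0.35 for all miRNAs. In KD3, 4 were higher and 1 lower, against 28.1% and 39.0% of all miRNAs (median 0.18). In KD6, 5 were higher and 2 lower, against 31.1% and 37.6% (median 0.71). The 3 most abundant were miR-1981-5p at a mean of 347.7 CPM, miR-1981-3p at 23.0 CPM and miR-6944-3p at 13.7 CPM. Of these, miR-6944-3p was higher in WT IP, at 2.19 ± 0.46 (adjusted p = 0.000302, edgeR), and miR-1981-5p had 0.09 ± 0.29 (adjusted p = 0.806). The ratios of miR-877-5p (1.85), miR-877-3p (1.45) and miR-702-3p (2.06) thus lay inside the WT range of these 12 miRNAs, which extended to both sides of 0. Both ends of that range belonged to rare miRNAs, with means of 3.72 CPM at −4.20 and 4.38 CPM at 2.40. Some of the 12 also shared a hairpin, so they are not all separate cases.

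**Figure D4:**
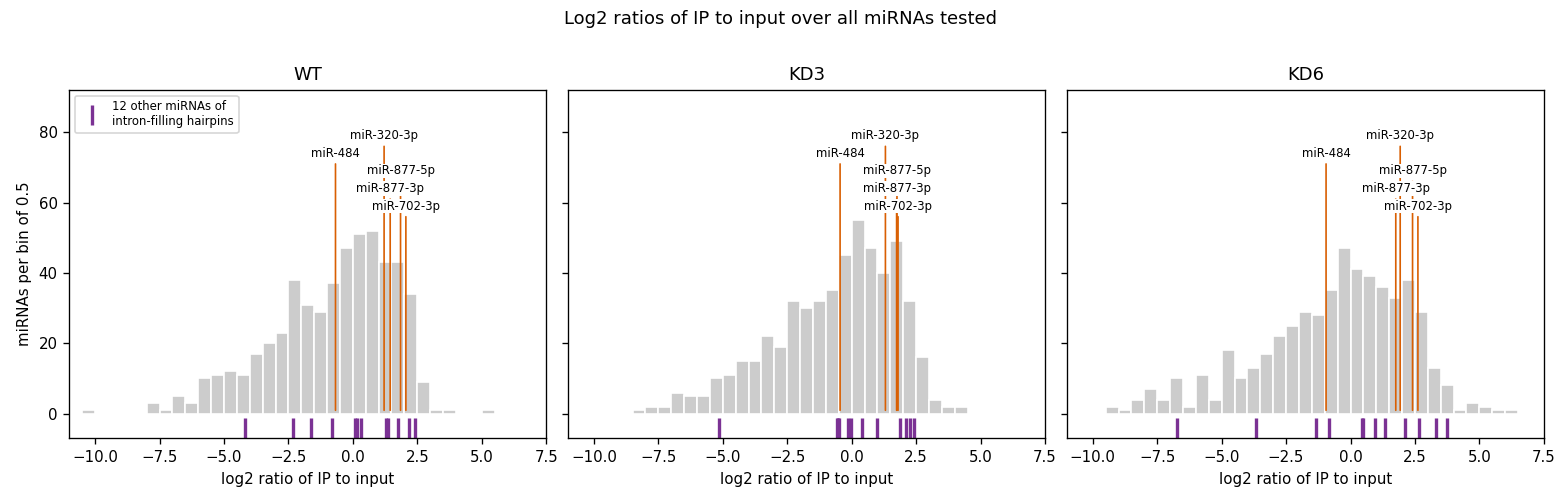
Number of miRNAs per bin of 0.5 in the log2 ratio of IP to input, for all 534 miRNAs tested in each condition, with lines at the 5 miRNAs and ticks below for 12 other miRNAs whose hairpins fill an intron. In WT the lines stand at 1.21, −0.67, 1.85, 1.45 and 2.06 for miR-320-3p, miR-484, miR-877-5p, miR-877-3p and miR-702-3p, and the ticks spread from −4.20 to 2.40.

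Across the 18 libraries, the log2 CPM of miR-320-3p followed that of miR-877-5p (Pearson r = 0.95) and miR-702-3p (r = 0.91), and not that of miR-484 (r = −0.25). These values are descriptions, since the libraries share fractions, scaling and replicate letters. Among 149 other miRNAs with a mean of at least 100 CPM, the patterns most like miR-320-3p were those of miR-501-3p (r = 0.974) and miR-423-5p (r = 0.972). For miR-877-5p they were miR-423-5p (r = 0.986) and miR-183-5p (r = 0.944), and for miR-702-3p they were miR-501-3p (r = 0.953) and miR-1198-5p (r = 0.942). For miR-877-3p the nearest patterns were miR-7a-5p (r = 0.846) and miR-222-3p (r = 0.812). For miR-484 the nearest were miR-181d-5p (r = 0.838) and miR-503-5p (r = 0.832).

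The table also gives the number of distinct read sequences behind each count. Leaving out the shallow library, miR-320-3p had a median of 17.4 reads per distinct sequence over the 8 inputs and 18.6 over the 9 IP libraries. MiR-484 had 25.5 in input and 15.4 in IP, and miR-877-5p, miR-877-3p and miR-702-3p had 4.72, 3.90 and 6.48 in input and 6.08, 6.02 and 9.03 in IP. In the IP libraries the estimated number of distinct sequences was 7 to 29 for miR-702-3p, 9.7 to 21 for miR-877-3p, 33.5 to 77.1 for miR-877-5p and 195.5 to 419.5 for miR-320-3p.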

How the data were processed

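Small RNA reads from 18 NIH/3T3 libraries were trimmed of the 3′ adapter by the authors and mapped with the SeqImp pipeline (version not given in the sources used here) to mm10, with Ensembl 89 and miRBase 21. The authors deposited estimated counts of mapped reads per mature miRNA and precursor, not normalized, in which a read matching several loci is divided, so that 47.0% of the non-zero values were not whole. A further deposited set of columns, of another unit, holds the number of distinct read sequences. Counts were rounded and the row with the largest total kept for each of 1907 miRNAs.

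The counts of 18 libraries were fitted with edgeR 4.0.16 in R 4.3.3 (TMM, filterByExpr, glmQLFit, glmQLFTest) as 6 group means, with Benjamini-Hochberg adjustment over 534 miRNAs and a threshold of 0.05. SE was taken as the log2 ratio over the root of its F statistic. The tests were also run on simulated counts, drawn independently for each library, and the outcome is not given here. Count ratios within a library were compared by exact permutation. The members and lists were chosen with earlier results of these data known. Named besides the 5 miRNAs are their other arms, the 3 most abundant of the intron-filling hairpins, and for each the 2 miRNAs of at least 100 CPM with the largest r. DESeq2 1.42.0, other scalings and filters, summed precursor rows, a replicate block, fits of the compared libraries and each library left out were the alternatives. The letters were taken as paired for KD3 with WT inputs and KD6 with KD3 inputs. There, deviations from the group means over 195 miRNAs correlated at 0.21 to 0.59 and 0.21 to 0.32 for every letter. Different letters were not correlated, so these values have no reference and cannot show that letters pair. No label says what a letter shares, and in the other comparisons a letter fell under 0.1. A reference sequence was found for 4 of the 5 miRNAs. Positions are 1-based.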

Additional observations from a re-analysis of the deposited data

How the results depend on the processing

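Of the 4 miRNAs higher in the IP, miR-320-3p, miR-877-5p and miR-702-3p were called in all 3 conditions under every setting tried and with any library of the comparison left out, and the log2 ratio of miR-320-3p to miR-484 kept its difference of IP from input (1.92 to 2.29 with a library left out). MiR-877-3p lost its call in WT without replicate A of the IP (0.93, adjusted p = 0.0556, edgeR) and in KD6 with total mapped reads as library size (0.89, adjusted p = 0.0938). In the KD3 input, 1 miRNA (miR-877-3p) passed without an abundance filter and when only the libraries compared were fitted. In the KD6 input, 1 miRNA (miR-877-5p) remained below WT with DESeq2, RLE factors, summed precursor rows, the shallowest library as TMM reference or a replicate block, 0 with library size alone, total mapped reads, no abundance filter or the compared libraries alone, and 0 to 1 with a library left out. The replicate block left the calls of the paired input comparisons as they were. For the arm ratio of miR-877, with IP and input of the same letter as pairs, it gave the same difference of 0.46 with an exact sign-flip permutation p of 0.043, against 0.137 unpaired, and 0.39 with p = 0.0859 when pair A of KD6 was left aside (chosen after seeing the data); with a library left out the difference was 0.32 to 0.57.

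Ratios that changed sign passed no test, as reported or in the setting that turned them. The IP ratio of miR-484 was 0.02 in WT and 0.003 in KD3 with the shallowest library as TMM reference, and −0.72 to 0.07 and −0.89 to 0.13 with a library left out. The value of 0.07 came without WT input C, where the median of all miRNAs was 0.52, against −0.35 as reported. The value of 0.13 came without KD3 input C, where that median was 0.40, against −0.25. For the change in enrichment from WT to KD3, miR-320-3p gave −0.0006 without a filter, −0.14 with that reference and −0.23 with total mapped reads (−0.16 to −0.05 with a library left out), miR-484 gave −0.01 with that reference and −0.12 with total mapped reads (−0.24 to 0.16), and miR-877-3p gave −0.07 with total mapped reads (−0.20 to 0.72). From WT to KD6, total mapped reads gave −0.09 for miR-320-3p, −0.26 for miR-877-5p, −0.57 for miR-877-3p and −0.25 for miR-702-3p, and library size alone gave −0.10, −0.40 and −0.07 for the last 3 (−0.30 to 0.60 for miR-877-3p and −0.07 to 1.01 for miR-702-3p with a library left out). From KD3 to KD6, miR-877-3p gave −0.59 with library size alone, −0.17 without a filter, −0.02 with summed rows, −0.15 with the replicate block and −0.50 with total mapped reads (−0.69 to 0.32).

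In the inputs, miR-320-3p in KD3 against WT gave 0.05 without a filter and 0.002 with the compared libraries alone (−0.04 to 0.001 with a library left out), and miR-702-3p gave −0.38 to 0.03. In KD6 against WT, miR-877-3p gave 0.01 with library size alone (−0.31 to 0.13), miR-484 −0.42 to 0.11 and miR-702-3p −0.85 to 0.24. In KD6 against KD3, miR-484 gave 0.002 with DESeq2, 0.29 with library size alone, 0.09 without a filter, 0.06 with the compared libraries, 0.003 with summed rows, 0.01 with RLE factors, 0.12 with the shallowest reference and 0.28 with total mapped reads (−0.10 to 0.40), and miR-702-3p gave 0.14 and 0.12 with library size alone and total mapped reads (−0.66 to 0.43). Calls among all miRNAs also moved with the setting, other than a left-out library. In the inputs they numbered 0 as reported and up to 74 for KD3 against WT, 27 and 13 to 28 for KD6 against WT, and 32 and 9 to 32 for KD6 against KD3. For the change in enrichment they numbered 0 and up to 1, 6 and 0 to 52, and 1 and 1 to 22 in the same order. With a library left out these 6 ranges were 0 throughout, 0 to 25, 2 to 48, 0 throughout, 0 to 25 and 0 to 48. The cause of these changes was not tested. Counts of 1 and 2 in the shallow input limit what KD6 can show for miR-877 and miR-702-3p.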

Other observations

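In WT and KD3, the 3 replicate letters stood in the same order by the ratio of miR-877-5p to miR-877-3p in input and in IP, as did the letters B and C in KD6, a pattern noticed after the data were seen and not tested. In WT the log2 ratios of replicates A, C and B were 1.10, 1.75 and 2.36 in input and 1.74, 2.28 and 2.65 in IP. In KD3, replicates B, A and C had 2.10, 3.08 and 3.59 in input and 2.22, 2.98 and 3.14 in IP. In KD6, replicates A, C and B had 1.01, 1.77 and 2.25 in IP, and inputs C and B had 0.80 and 1.12, while input A held 1 count of each arm. By level rather than by ratio, miR-877-3p of the IP also stood in the order B, C and A in WT (14.1, 23.2 and 40.8 CPM) and in KD6 (15.2, 22.3 and 39.1 CPM). In the KD3 IP the order was another one, C, A and B (7.85, 10.0 and 14.0 CPM).

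The mature strand with the fewest uridines of the 4 with a sequence, miR-877-5p with 2, had a log2 ratio of IP to input of 1.85 in WT, and miR-877-3p with 8 had 1.45. The difference of 0.48 between IP and input in their log2 count ratio in WT had an exact permutation p of 0.5. MiR-484 and miR-702-3p, both with 5 uridines in 22 bases, had WT ratios of −0.67 and 2.06.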
